A study of Mus musculus with 18 samples.

Results

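KE + EpEX induced pluripotent stem cells (iPSCs) were compared with the mouse embryonic fibroblasts (MEFs) from which such cells are made. The comparison used 7 of the 18 arrays in the series, 4 of KE + EpEX clones and 3 of MEFs, and all 45037 probe sets that were not array controls. A probe set is a group of array probes that reads 1 transcript. A gene symbol was known for 931 probe sets, which gave 361 genes higher and 326 genes lower in the 4 clones than in MEFs, called gained and lost genes here.

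To make the KE + EpEX clones, MEFs were transfected with doxycycline-inducible Klf4 (K) and EpCAM (E) on PiggyBac transposons and treated with EpEX, the soluble extracellular domain of EpCAM. No exogenous Oct4, Sox2 or c-Myc was given. Transfected cells were plated with feeder cells, and doxycycline at 1.5 µg/ml was kept on them for 21 days. MEFs came from E13.5 embryos and were used within 4 passages. Their labels call the 3 samples biological replicates, whereas the series design speaks of 1 primary culture. The other groups were 3 samples of mouse embryonic stem cells (mESCs), 4 OE + EpEX clones, which received Oct4 in place of Klf4, and 4 OSKM clones, which received Oct4, Sox2, Klf4 and c-Myc without EpCAM or EpEX. Labels of all groups give the same strain, with the rtTA*M2 transactivator at ROSA 26 and the tm2Jae allele of POU5f1, the gene for Oct4, which carries GFP in the study. The passage of the clones, and whether feeder cells were removed before RNA was taken, are not given in the sources used here.

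Fibroblasts make and anchor to a collagen-rich matrix, and their identity is held by mesenchymal transcription factors such as those of the Twist, Snail and Zeb families. Pluripotent stem cells grow as tight epithelial colonies joined by E-cadherin, and a circuit around Oct4, Sox2 and Nanog keeps them undifferentiated. Reprogramming of fibroblasts passes through a mesenchymal-to-epithelial transition, in which matrix and mesenchymal genes are shut and junction genes are opened. EpCAM is an epithelial adhesion protein of that second state.

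The proximal promoters of 3 genes are shown because the comparison turns on them. Epcam is the endogenous form of a transfected gene, Nanog had the widest gain of all genes with a symbol, and Ptn, a secreted growth factor gene, had the widest gap between clones among lost genes with a promoter sequence at hand. Each run is the 250 bases before the transcription start, 5′ to 3′ on the gene's strand, from RefSeq on GRCm38.p6. Epcam lies at chr17:87635729-87635978 on the plus strand, Nanog at chr6:122707239-122707488 on the plus strand (the first of 2 promoters listed) and Ptn at chr6:36810180-36810429 on the minus strand. Capitals mark matches, on either strand, to the E-box read by Snail and Zeb factors (CACCTG or CAGGTG), a KLF-like box (GGGNGTG), the octamer (ATGCAAAT or ATTTGCAT) and the AP-1 site (TGANTCA).
Epcam: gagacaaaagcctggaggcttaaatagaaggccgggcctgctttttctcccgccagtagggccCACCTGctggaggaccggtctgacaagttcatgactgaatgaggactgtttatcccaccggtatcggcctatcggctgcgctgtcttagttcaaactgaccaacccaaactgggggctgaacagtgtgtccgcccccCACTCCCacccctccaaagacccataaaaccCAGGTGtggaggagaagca
Nanog: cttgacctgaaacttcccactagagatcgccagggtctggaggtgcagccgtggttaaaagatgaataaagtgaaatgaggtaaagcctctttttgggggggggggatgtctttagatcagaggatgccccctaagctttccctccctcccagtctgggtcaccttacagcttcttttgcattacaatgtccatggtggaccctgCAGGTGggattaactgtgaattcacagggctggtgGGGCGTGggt
Ptn: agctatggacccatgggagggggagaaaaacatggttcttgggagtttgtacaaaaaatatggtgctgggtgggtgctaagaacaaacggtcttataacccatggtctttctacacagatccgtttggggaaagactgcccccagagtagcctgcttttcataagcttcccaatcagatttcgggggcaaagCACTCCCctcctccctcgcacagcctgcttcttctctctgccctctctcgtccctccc
Epcam held 2 E-boxes and 1 KLF-like box, Nanog held 1 of each, and Ptn held 1 KLF-like box and no E-box. None of the 3 held an exact match to the octamer or to the AP-1 site in this window. Sites with other letters were not searched for, so this does not show that Oct4 has no site there. The Nanog run holds ttttgcat, which differs from ATTTGCAT in the first letter. Among the promoters of 27025 genes, 17.1% held the E-box, 26.0% the KLF-like box, 1.61% the octamer and 6.87% the AP-1 site. A promoter was found for only 277 of 361 gained and 239 of 326 lost genes, under the share needed to compare the lists, so no share is given for them.

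Each array gave 1 log2 value per probe set, set by the authors to a median of 0 over the 18 arrays. A value above 0 is thus a level above that probe set's usual one. Whether the transcript was detected at all cannot be read from it, and it cannot be ranked against another probe set. MEF sample 1 stood apart from the other MEF samples, at a root mean square distance of 0.864 and 0.883 log2 units over all probe sets, against 0.236 between samples 2 and 3. KE + EpEX clones 1 and 2 were the closest pair of clones (0.243) and clones 1 and 4 the furthest (0.470), while pairs of OSKM clones lay 0.191 to 0.235 apart. Every KE + EpEX clone was 1.13 to 1.48 from every MEF sample. Values are therefore given by clone and by MEF sample, and for some genes that MEF sample 1 moves widely the difference from samples 2 and 3 is given too. Without it the fold difference was more than 1.5 times wider for 180 of the 326 lost and 70 of the 361 gained genes and more than 1.5 times narrower for 7 and 3.

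A total of 10696 probe sets, 23.7% of all tested, differed between KE + EpEX clones and MEFs at an adjusted p under 0.05 in limma and a difference of at least 2-fold. Of these, 5490 (12.2%) were higher and 5206 (11.6%) were lower in the clones. The mean difference was 10-fold or more for 1653 probe sets, 753 higher and 900 lower. All 361 gained and 326 lost genes are among the counted probe sets by construction, because the authors listed them for a difference of at least 10-fold from the MEF mean on every array of the other groups, these 4 clones included. Their differences from MEFs are thus a description and carry no p-value. Outside the lists, 9748 probe sets without a symbol were counted, 5013 higher and 4735 lower. The gained genes were 3.48 to 10.04 log2 units above MEFs with a median of 4.63, or 24.7-fold, and the lost genes 3.49 to 7.54 units below with a median of 26.9-fold. Against MEF samples 2 and 3 alone the medians widened to 4.96 and −5.50.

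**Figure D1:**
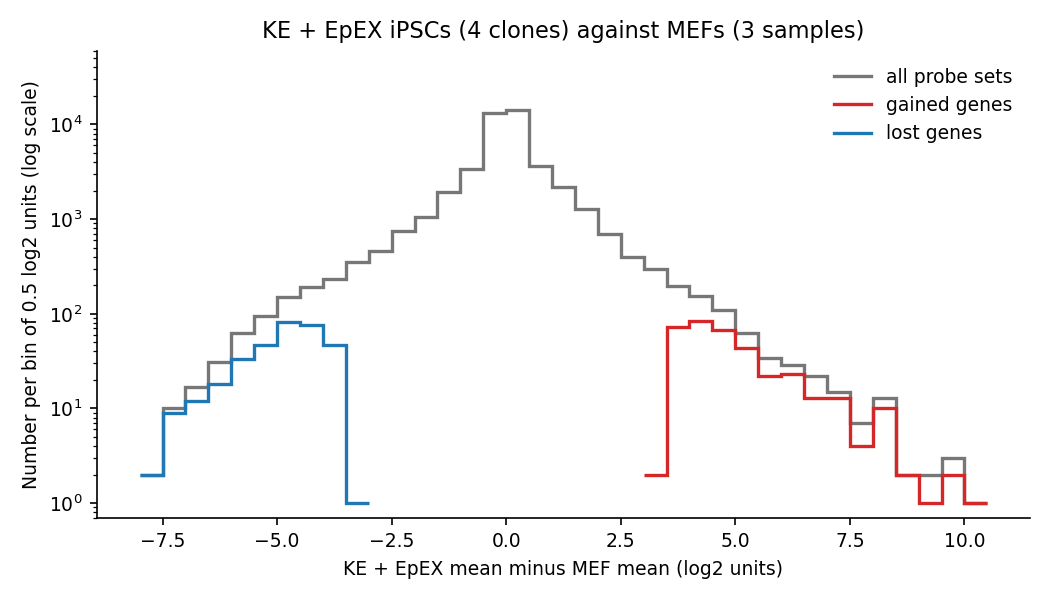
Number of probe sets or genes (log scale) in bins of 0.5 log2 units of the KE + EpEX mean minus the MEF mean, for all 45037 probe sets (grey), 361 gained genes (red) and 326 lost genes (blue). Most probe sets lie near 0, and the named genes form both tails, from −7.54 to 10.04.

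Genes of the pluripotency circuit were gained in all 4 clones although no Oct4, Sox2 or Nanog had been supplied. Of 65 genes in a pluripotency list, 41 had a symbol, and all 41 were higher than in MEFs, by 3.58 to 10.04 log2 units with a median of 78.8-fold. In this and later lists a gene had a symbol only where the authors listed it at least 10-fold from the MEF mean. List genes that changed less could not be seen, so such counts do not describe whole classes. Among all genes with a symbol 361 were higher and 326 lower, and of all probe sets 12.2% and 11.6% were counted so. Nanog, a homeobox factor at the centre of the circuit, read 0.46, 0.49, −0.15 and 0.50 in clones 1 to 4 and −9.52, −9.79 and −9.82 in MEF samples 1 to 3. The difference of 10.04, or 1051-fold, was the largest among genes with a symbol. Clones and MEFs lay far apart for Nanog, and neither group spread by more than 1 unit.

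Sox2, the partner of Oct4 on DNA, read −0.06, −0.02, −0.06 and 0.48 in the clones and −8.41, −5.24 and −5.26 in MEFs. Its gain of 6.39 (83.9-fold) became 5.34 against MEF samples 2 and 3, since sample 1 was the lowest. Pou5f1 itself read −0.26, −0.02, −0.15 and 0.02 in the clones and −3.27, −3.62 and −4.13 in MEFs. At 3.58, or 11.9-fold, this was the smallest gain among the 41 pluripotency genes. Clones and MEFs did not overlap here, nor for any other gained gene, which the 10-fold rule of the authors' lists made nearly certain. The probe set was not shown to read only the endogenous transcript, but these clones had no Oct4 transgene.

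Other factors of the naive state were gained to a like extent in each clone. Zfp42 (Rex1), a zinc finger marker of undifferentiated cells, read 0.43, 0.43, 0.05 and −0.05 in the clones and −7.94 to −8.31 in MEFs, a gain of 8.37. Esrrb, an orphan nuclear receptor, was 6.63 above MEFs, with clones between −0.01 and 0.26 and MEFs between −6.58 and −6.45. Sall4, a zinc finger factor that acts with Oct4, was 7.30 above MEFs. The widest gains after Nanog were those of Dppa5a (9.71, 838-fold), an RNA-binding protein of early embryos, Tdgf1 (9.63, 792-fold), the co-receptor Cripto of Nodal signalling, and Bex1 (9.31). Fgf4, a growth factor of the inner cell mass, Dppa2 and Trap1a were also among the 10 widest gains, at 8.44, 8.40 and 8.34. None of these genes overlapped between the clones and MEFs, which follows largely from how the authors listed gained genes. Klf5, a Krüppel-like factor of the same family as the transfected Klf4, was gained by 4.38, with MEF values of −2.93, −5.33 and −5.22. Klf4 had no symbol in the lists and was not analysed here.

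Some pluripotency genes differed among the 4 clones. Otx2, a homeobox factor of the primed state, read −2.24 and −1.63 in clones 1 and 2 and −0.14 and 0.32 in clones 3 and 4. Lin28a, an RNA-binding protein that blocks let-7 maturation, followed the same order with −1.08, −0.76, −0.61 and −0.02. Otx2 and Lin28a remained 5.05 and 4.34 above MEFs on average. Dppa3 (Stella), a maternal factor that protects DNA methylation marks, ran the other way, at 1.82 and 2.0 in clones 1 and 2 and 0.90 and 0.94 in clones 3 and 4. Dnmt3l, a cofactor of de novo DNA methyltransferases, was highest in clone 3 at 1.40, with the other clones between −0.64 and −0.20. Over the 41 genes, however, the median difference from the OSKM mean was between −0.09 and 0.07 in each of the 4 clones.

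**Figure D2:**
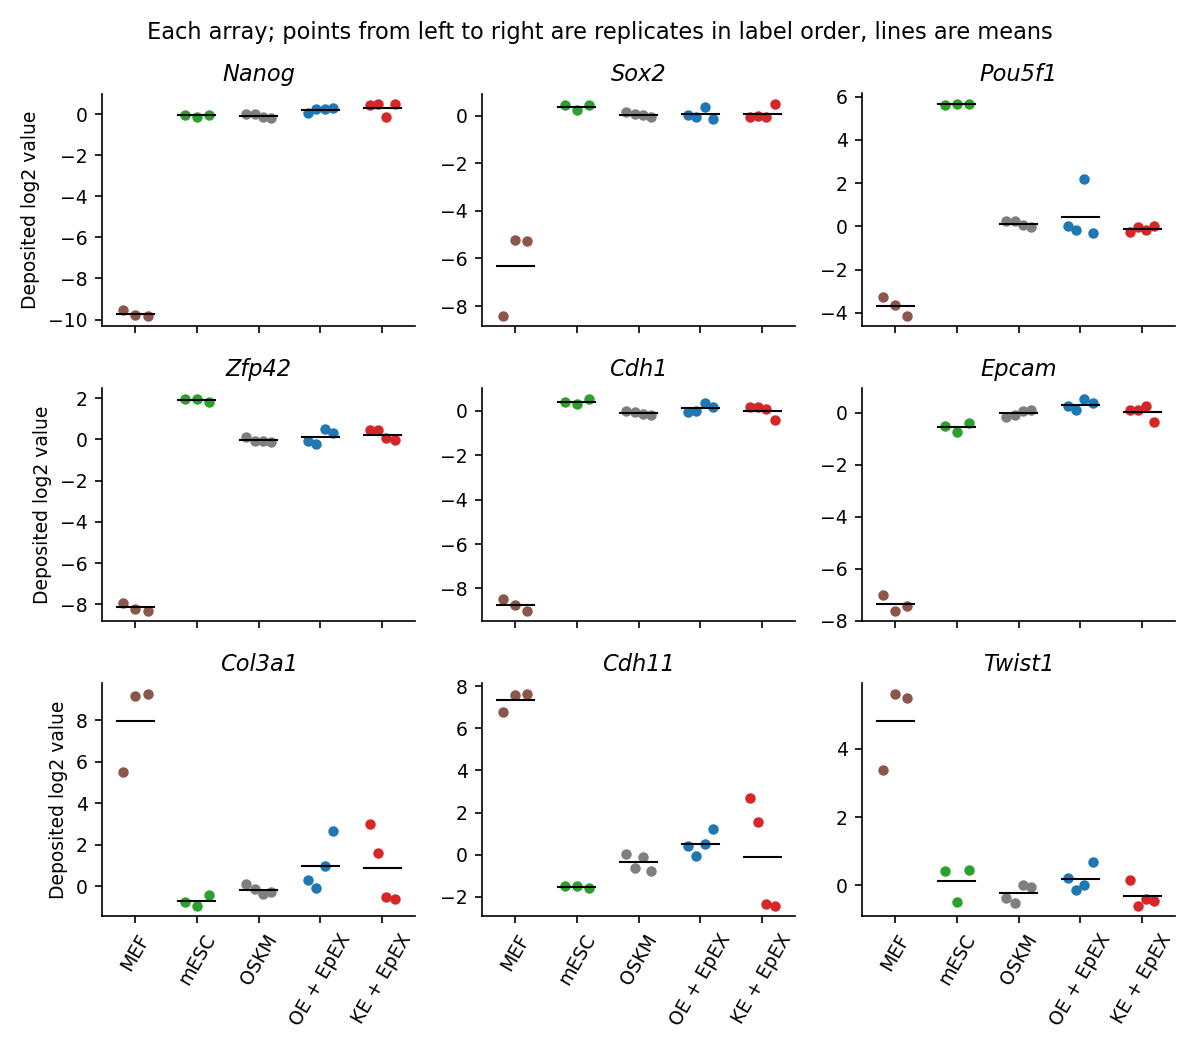
Deposited log2 value (relative to the median of 18 arrays) of 9 genes on every array, by group, with a line at each group mean. Nanog, Sox2, Pou5f1, Zfp42, Cdh1 and Epcam are higher in the 4 KE + EpEX clones than in all MEF samples, Col3a1, Cdh11 and Twist1 are lower, and clones 1 and 2 lie above clones 3 and 4 for Col3a1 and Cdh11.

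The levels reached were then set against those of the other pluripotent groups. Against mESCs, 1552 of all probe sets (3.45%) were counted, and among the gained genes 43 of 361 (11.9%), 24 higher and 19 lower (1.74% and 1.71% of all probe sets). Since the lists were made with the KE + EpEX and mESC arrays too, nothing is read from the difference of these shares. The median difference over the 361 genes was −0.07. Of the 43 calls, 31 held when each of the 7 arrays was left out in turn and 25 held without clones 1 and 2. Against OSKM clones 0 probe sets were counted (3479 at an unadjusted p under 0.05 in limma), and 0 against OE + EpEX clones (2446), which does not show that the levels were equal. The count against OSKM became 114 without clone 3 and 831 after quantile normalization, and the count against OE + EpEX became 25 without clones 1 and 2.

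Of the 41 pluripotency genes, 5 (12.2%) differed from mESCs, near the 11.9% of all gained genes. Pou5f1 was 5.75 log2 units lower (SE 0.415, adjusted p = 2.32e-07), with mESCs at 5.65 ± 0.02 (SD, n = 3). OSKM clones were also near 0 for this probe set, at a mean of 0.13. Zfp42 fell short of mESCs by 1.68 (SE 0.165, adjusted p = 6.87e-06) and Nr5a2, a nuclear receptor that binds the Pou5f1 promoter, by 1.45 (SE 0.153, adjusted p = 1.45e-05), as all clones lay below all mESC samples. Lin28a was 1.37 lower (SE 0.264, adjusted p = 0.00284), and 1.06 lower without clones 1 and 2, with an adjusted p of 0.0602. Dppa3 was 1.42 higher (SE 0.43, adjusted p = 0.0437), a call that was lost when clone 1, clone 2 or any mESC sample was left out. Nanog (0.37, adjusted p = 0.105), Sox2 (−0.29, adjusted p = 0.845) and Esrrb (0.15, adjusted p = 0.411) did not pass the test. Crxos1, an oocyte and embryo homeobox gene outside the list, was 2.10 above mESCs (SE 0.433, adjusted p = 0.0045), though only 1.59 (adjusted p = 0.0908) without clones 1 and 2.

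**Figure D3:**
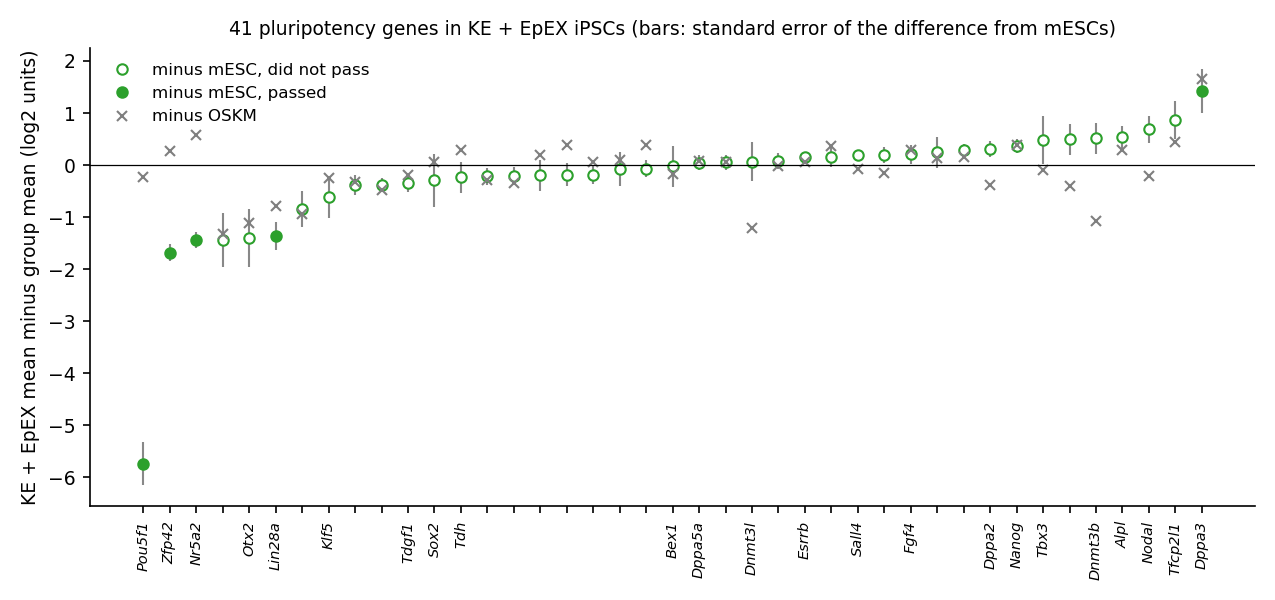
KE + EpEX mean minus mESC mean in log2 units for the 41 pluripotency genes, with limma standard errors as bars and filled points for genes that passed the test, and crosses for the KE + EpEX mean minus the OSKM mean. Pou5f1 stands alone at −5.75, and most genes lie within 1 unit of 0. Only some of the genes are named on the axis.

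Epithelial genes with a symbol were gained with the pluripotency genes. Of 54 genes in an epithelial list, 11 had a symbol and all 11 were higher in the clones, by 3.68 to 8.75. Cdh1, E-cadherin, read 0.19, 0.19, 0.10 and −0.42 in the clones and −8.48, −8.73 and −9.0 in MEFs, a 431-fold gain. Epcam read 0.10, 0.11, 0.28 and −0.36 in the clones against −7.03, −7.62 and −7.42 in MEFs, a 167-fold gain. OSKM clones, which carried no EpCAM transgene, had an Epcam mean of −0.01, inside the range of the KE + EpEX clones. Whether the probe set also reads the transfected gene is not known. Epcam was 0.58 above mESCs (SE 0.161, adjusted p = 0.0285), which is under 2-fold.

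The junction genes Cldn4, Dsg2, Pkp2 and Dsp spread more widely between MEF samples than between clones. Cldn4, a claudin of tight junctions, was 53.4-fold above MEFs and 1.59 log2 units above mESCs (SE 0.293, adjusted p = 0.002). It was the 1 of 11 epithelial genes (9.09%) counted against mESCs, beside 11.9% of all gained genes. Dsg2, the desmoglein of desmosomes, was 6.86 above MEFs, and its 3 probe sets lay between 4.67 and 6.86. Pkp2, a plakophilin of the desmosome plaque, read −1.08 in MEF sample 1 but −6.23 and −5.34 in samples 2 and 3. Its gain of 3.92 was 5.48 against samples 2 and 3. Dsp, desmoplakin, differed among clones, at −0.43, 0.02, 0.75 and 1.26.

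Germline and chromatin genes with a symbol, 21 of 58 in the list, were all higher as well, by 3.70 to 8.28. Rhox5, an X-linked homeobox gene of reproductive tissue, was 311-fold above MEFs, and Dazl, an RNA-binding protein of germ cells, 302-fold. Over the probe sets of Dazl the median gain was 7.41 log2 units, against 8.24 for the 1 used. Stk31, a kinase of germ cells, was 170-fold higher. Rhox5 was also 1.22 above mESCs (SE 0.176, adjusted p = 0.000268) and Stk31 1.69 above them (SE 0.166, adjusted p = 6.96e-06). These 2 of 21 genes (9.52%, beside 11.9% of all gained genes) were counted against mESCs. Both calls held without any single array and without clones 1 and 2. Ddx4 (Vasa), an RNA helicase of germ cells, was 5.18 above MEFs. Sycp3, a protein of the meiotic chromosome axis, read −0.10, 0.12, 1.31 and 0.04, so that clone 3 stood above the others.

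Cell division genes were gained too, in a list whose length cannot be set against that of the other lists. A list of 92 genes for DNA replication and mitosis was drawn up from the symbols of the gained genes themselves, so all 92 were higher by construction, by 3.49 to 6.07 with a median of 18.6-fold. Esco2, which acetylates cohesin, was 67.2-fold above MEFs, and Cdc6, which loads the replicative helicase, 52.7-fold. Mcm5, a subunit of that helicase, was 5.14 higher and Aurkb, the kinase of the chromosomal passenger complex, 4.59 higher. In contrast to the pluripotency genes, the MEF samples were split. The median over the 92 genes, minus the OSKM mean, was −3.19 in MEF sample 1 and −4.79 and −4.78 in samples 2 and 3, while that of the 41 pluripotency genes was −6.15, −6.56 and −6.21.

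Single mitotic genes show this MEF split. Bub1, a spindle checkpoint kinase, read −3.08, −6.54 and −6.20 in MEFs and between −0.30 and 0.19 in the clones, so its difference of 5.26 became 6.36 without sample 1. Ccnb2, a mitotic cyclin, read −2.24, −4.90 and −4.76 in MEFs, with a difference of 3.86 that became 4.72. Top2a, the topoisomerase of dividing cells, read −2.86, −4.79 and −4.76 in MEFs. MEFs remained below every clone for all 3 genes, sample 1 included, as the listing of gained genes made nearly certain.

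Metabolic genes and transporters moved in both directions. Upp1, uridine phosphorylase, read −0.63, −0.27, −0.05 and 0.34 in the clones and −7.58 to −8.40 in MEFs, a 238-fold gain. Tdh, threonine dehydrogenase, was 102.5-fold higher, and Gldc, which cleaves glycine, was 5.52 higher with clone 4 at −1.12 below the other clones. Slc2a3, a glucose transporter, had 3 probe sets between 4.50 and 8.21. Of 21 named solute carriers, pumps and channels, 11 were higher and 10 lower in the clones. Aqp3, a water and glycerol channel, was gained by 5.91, or 6.97 as the median over its probe sets. Its values of 1.44 and 1.46 in clones 1 and 2 lay above −0.15 and 0.26 in clones 3 and 4. It was 1.18 above mESCs (SE 0.35, adjusted p = 0.0403), a call that did not hold without clone 1, clone 2 or any mESC sample. Aqp1, another water channel, was at −6.80, or −7.89 against MEF samples 2 and 3. Slc9b1, a sodium-proton exchanger family member, was 4.10 above MEFs but 2.09 below mESCs (SE 0.27, adjusted p = 0.000101), and Aass, of lysine breakdown, was 3.80 above MEFs but 1.56 below mESCs (SE 0.192, adjusted p = 6.85e-05).

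Collagens and other matrix genes were among the lost genes. All 7 named collagens of 23 in the list were lower, by 4.89 to 7.13 log2 units, as were all 36 named genes of 97 in a list of other matrix genes, by 3.49 to 7.28. In RNA of a whole culture, fewer cells of a type and less RNA per cell cannot be told apart. Col3a1, a fibrillar collagen of loose connective tissue, read 3.01, 1.58, −0.54 and −0.60 in clones 1 to 4 and 5.51, 9.19 and 9.28 in MEFs, a 140-fold loss. MEF sample 1 was closer to clone 1 than to the other MEF samples, and the loss was 8.37 against samples 2 and 3. Col1a1, the main chain of type I collagen, read 1.70, 0.96, −0.49 and −0.64 against 5.49, 5.19 and 5.15, a 29.7-fold loss on which the MEF samples did not split.

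Other matrix genes followed collagens in the order of the clones. Postn, a matricellular protein that bundles collagen, read 1.55, 0.61, −0.97 and −2.77 in the clones and 5.12 to 6.61 in MEFs. Dcn, the proteoglycan decorin, read 1.94, 0.83, −1.22 and −1.38 against 3.82, 7.0 and 7.09 in MEFs and was lost 60.9-fold, or −7.0 on the log2 scale against samples 2 and 3. Lum, lumican, was lost 41.9-fold, or −6.82 against samples 2 and 3. Mmp3, the protease stromelysin, lay between −0.40 and 0.08 in the clones, with clone 1 the lowest, and at 2.28, 8.88 and 8.99 in MEFs. Both clones 1 and 2 lay above both clones 3 and 4 in 7 of 7 collagens and 29 of 36 other matrix genes, Mmp3 being one that did not, against 63.5% of all lost genes and 22.7% of all probe sets.

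Regulators of mesenchymal identity with a symbol were lost in all clones. Of 138 genes in a list of mesenchymal regulators and adhesion genes, 28 had a symbol and all 28 were lower, by 3.75 to 7.46. Twist1, a helix-loop-helix factor of mesoderm, read 0.16, −0.60, −0.39 and −0.45 in the clones and 3.39, 5.61 and 5.50 in MEFs, a 35.6-fold loss that was 5.88 log2 units against samples 2 and 3. Snai2 (Slug), a repressor of E-cadherin, read 0.39, 0.21, 0.06 and −0.17 and was lost 32.2-fold. Zeb2, another repressor that binds the E-box, read 0.53, 0.03, −0.79 and 0.46 and was lost 27.7-fold. For these 3 factors the clones spread by 0.56 to 1.32 units, far less than the distance to any MEF sample. Hoxa9 and Hoxa10, which give fibroblasts a positional identity, were 3.95 and 4.78 lower, and Runx2, a factor of bone-forming cells, 4.67 lower.

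Cdh11 and Prrx1 differed more among clones than Twist1, Snai2 or Zeb2. Cdh11, the cadherin of mesenchymal cells, read 2.70, 1.55, −2.36 and −2.42 in the clones and 6.77, 7.58 and 7.63 in MEFs, a 176-fold loss on average. Prrx1, a homeobox factor of limb and skin mesenchyme, read 2.17, 1.18, −1.38 and −1.03 against 5.98, 6.21 and 6.22. For Cdh11 clones 3 and 4 were lower than the 3 mESC samples (−1.59 to −1.49) and clones 1 and 2 were higher.

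Of 28 genes in a list of EpCAM and STAT3 signalling, 4 had a symbol, and all 4 were receptors that were lower in the clones. Osmr, the oncostatin M receptor, which signals to STAT3, read 2.86, 1.87, −1.16 and −1.02 in the clones and 5.37, 7.36 and 7.47 in MEFs, a 68.6-fold loss that was −6.78 on the log2 scale against samples 2 and 3. Pdgfrb, a receptor of platelet-derived growth factor, read 1.58, 0.64, −0.39 and −1.81 and was 5.75 lower than in MEFs, and Pdgfra was 5.20 lower. Egfr, the epidermal growth factor receptor, was lost 19.5-fold, with 1.14, 0.76, −0.10 and −0.57 in the clones. None of the 4 was counted against mESCs, where 2.15% of all lost genes were, in a fit whose spread included the MEF samples.

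Secreted signals were also among the lost genes, with 34 of 35 named members of a list of 145 lower by 3.58 to 7.52. Dkk2, a modulator of Wnt signalling, read 4.54, 9.09 and 9.05 in MEFs and was 183-fold lower in the clones, or −9.03 on the log2 scale against samples 2 and 3. Cxcl12, a chemokine of stromal cells, read 1.86, 0.89, −0.78 and −0.46 against 6.47, 8.20 and 8.26. Agtr2, an angiotensin receptor outside that list and the widest loss of any named gene with all 3 MEF samples, read 1.6, 0.59, −0.41 and −0.29 in the clones and 4.89, 9.43 and 9.43 in MEFs, a 186-fold loss (−9.06 on the log2 scale against samples 2 and 3, where Lcn2 at −9.90 and Cxcl5 at −9.66 were among genes with wider losses). Rspo2, a Wnt agonist also outside it, was at −7.38 with all 3 MEF samples and −9.47 against samples 2 and 3. The remaining genes of the 10 widest losses from the mean of all MEF samples were Gpm6b (−7.35, and −9.11 against samples 2 and 3) and Nov (−7.28 and −8.71), with Cdh11, Cxcl12, Cxcl5, Lcn2 and Col3a1 described by their values.

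Several secreted genes set MEF sample 1 apart. Cxcl5, a chemokine for neutrophils, read 3.30, 10.58 and 10.53 in MEFs and 3.33 in clone 1, so that clone 1 and MEF sample 1 did not separate, although the mean difference was −7.24. Lcn2, lipocalin, read 1.95, 9.82 and 10.06 in MEFs and −0.04 to 0.19 in the clones, with no order of clones 1 and 2 above the others. Gdf10, a member of the transforming growth factor family, read −0.06 in MEF sample 1, inside the clones' range of −0.25 to 0.18, and 5.28 and 5.49 in samples 2 and 3. Cxcl5 and Gdf10 were among 7 lost genes whose clones overlapped MEF sample 1, while clones overlapped sample 2 or 3 for 0 lost genes. Listing at 10-fold or more from the MEF mean made an overlap unlikely for any lost gene. The 1 gained gene of the list was Mdk, midkine, at 4.39 above MEFs. Ptn, the other member of the same small family, was 6.18 lower, and its 2 probe sets lay at −6.18 and −5.04.

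Of 36 imprinted genes, 3 had a symbol. Dlk1, a Notch-like ligand expressed from the paternal allele, was 3.92 lower than in MEFs, Dcn was lower as described, and Phlda2, a growth-restraining placental gene, was 3.95 higher. Xist, the RNA that silences 1 X chromosome in female cells, read 4.91, 6.51 and 5.72 in MEFs and −0.36 to 0.35 in the clones. Ddx3y, on the Y chromosome, read −1.79, −5.80 and −5.31 in MEFs and −0.15, −0.02, 0.49 and 0.54 in the clones, and Eif2s3y, also on it, read −1.95, −6.23 and −6.31 in MEFs. The labels give no sex, and whether these cultures differed in sex was not tested.

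The clones were not equally far from fibroblasts. The SD over the 4 KE + EpEX clones had a median of 0.408 over the 326 lost genes, against 0.269 in OE + EpEX, 0.156 in OSKM and 0.169 in mESCs. Over the 361 gained genes it was 0.239, 0.208, 0.0797 and 0.116. Clone 1 had the highest value of the 4 clones in 250 of the 326 lost genes, against 50 of the 361 gained genes and 11566 of all 45037 probe sets. Both clones 1 and 2 lay above both clones 3 and 4 in 207 lost genes (63.5%) and below both in 10 (3.07%), whereas over all probe sets the shares were 22.7% and 20.1%. The medians of the lost genes, minus the OSKM mean, were 0.61, 0.24, −0.12 and −0.08 in clones 1 to 4, still 4.14, 4.65, 5.08 and 4.94 log2 units below the MEF mean.

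Because the lists were made with these clones, the pattern was also read over 1082 probe sets that were at least 8-fold higher in the MEF mean than in the OSKM and mESC means, chosen without any KE + EpEX or OE + EpEX array and referred to as MEF-high. Their median, minus the OSKM mean, was 0.713 in clone 1, 0.315 in clone 2, −0.0955 in clone 3 and −0.0495 in clone 4. OSKM clones lay between −0.0352 and 0.0591 and mESC samples between −0.109 and −0.00164. The OSKM and mESC means helped to choose the set, so their values near 0 follow in part from that choice. In clone 1, 402 MEF-high probe sets (37.2%) were at least 1 log2 unit above the OSKM mean, as were 142 (13.1%) in clone 2, 2 (0.185%) in clone 3 and 42 (3.88%) in clone 4. The median level was 9.24%, 6.68%, 4.92% and 5.18% of the MEF mean in the 4 clones. It was 5.24% to 5.47% in OSKM clones and 5.02% to 5.36% in mESC samples, so only clones 1 and 2 were above these groups. Among the 611 MEF-high probe sets outside the authors' lists the medians were 0.750, 0.356, −0.0641 and −0.0291. OE + EpEX clone 4, made with Oct4, stood at 0.669 with 349 probe sets (32.3%) past 1 unit.

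**Figure D4:**
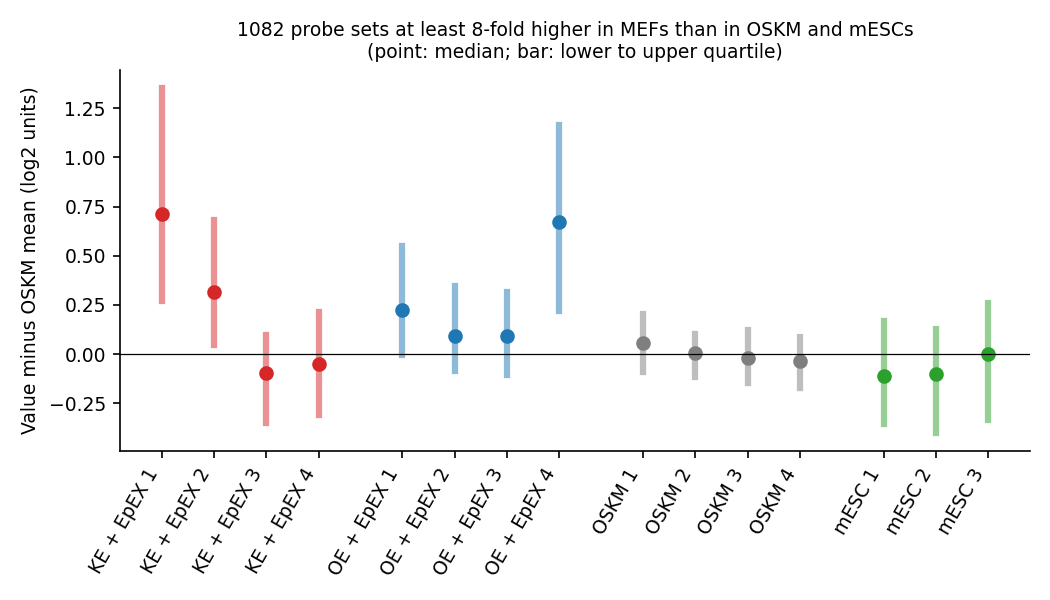
Median (point) and quartiles (bar) over the 1082 MEF-high probe sets of the value minus the OSKM mean, in log2 units, for the 15 arrays that are not MEFs. KE + EpEX clone 1 (0.713), OE + EpEX clone 4 (0.669) and KE + EpEX clone 2 (0.315) lie above the rest, and clones 3 and 4 of KE + EpEX lie at the level of OSKM and mESCs.

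Over all probe sets, 192 (0.426%) had both clones 1 and 2 at least 1 log2 unit above both clones 3 and 4, and 39 (0.0866%) had the reverse. Of the 192, 137 (71.4%) were MEF-high, against 2.40% of all probe sets. Among the lost genes 41 met this gap and 0 the reverse, and among the gained genes 1 met each. By list the 41 included 4 of 7 collagens, 8 of 36 other matrix genes, 6 of 28 mesenchymal regulators and 7 of 34 secreted signals. List medians, minus the OSKM mean, were 1.91, 0.96, −0.28 and −0.42 in clones 1 to 4 for collagens, 0.74, 0.34, −0.22 and −0.09 for other matrix genes and 0.77, 0.39, −0.12 and −0.16 for mesenchymal regulators.

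Among the lost genes with a symbol, the widest gaps between these clones were at Cdh11 (3.91 log2 units), Ptn (3.60), Osmr (2.89) and Ptx3 (2.36). Ptn, whose promoter is printed above, read 3.22, 2.16, −1.70 and −1.44 in clones 1 to 4 and 7.38, 6.48 and 6.37 in MEFs. These are 8.73%, 4.17%, 0.288% and 0.344% of the MEF mean, with OSKM clones at 0.426%. Cdh11 stood at 4.05% and 1.83% of the MEF mean in clones 1 and 2, at 0.121% and 0.116% in clones 3 and 4 and at 0.485% in OSKM. Clones 3 and 4 were thus below the OSKM mean for both genes, and clones 1 and 2 above it but far below MEFs. The OE + EpEX clones were above it as well, at 0.65 to 1.87 for Ptn and −0.04 to 1.24 for Cdh11, against OSKM means of −1.13 and −0.36.

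Ptx3, a pentraxin secreted by stromal cells, read 3.0, 2.20, −0.27 and −0.16 in the clones against 4.01, 9.04 and 9.11 in MEFs, and clone 1 held 4.79% of the MEF mean but 1.49% of the mean of samples 2 and 3. Osmr was at 6.81% and 3.42% in clones 1 and 2, or 4.25% and 2.13% of samples 2 and 3, and Bgn, the proteoglycan biglycan, at 8.92% and 5.04%. Col3a1 in clone 1 was at 3.17% of the mean of all 3 MEF samples but 1.34% of the mean of samples 2 and 3. The other genes of the 12 widest gaps were S1pr3 (2.27), Ogn (2.23), Prrx1 (2.21), Bgn (2.21), Col3a1 (2.12), Dcn (2.04), Mgp (1.72) and Sspn (1.69). Matrix proteins, surface receptors and secreted factors were all among them. These levels were not particular to KE + EpEX clones. Except at Cdh11 and Ptn, OE + EpEX clone 4 was above KE + EpEX clone 2 in these 12 genes, as at Col3a1 (2.67 against 1.58) and Osmr (2.19 against 1.87). It was below KE + EpEX clone 1 in all 12. The last genes past a gap of 1 were Pdgfrb (1.03), Parp3 (1.01) and Plxdc2 (1.00), and the first under it were Smpdl3a (0.96), Col5a2 (0.95) and Tnc (0.93).

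**Figure D5:**
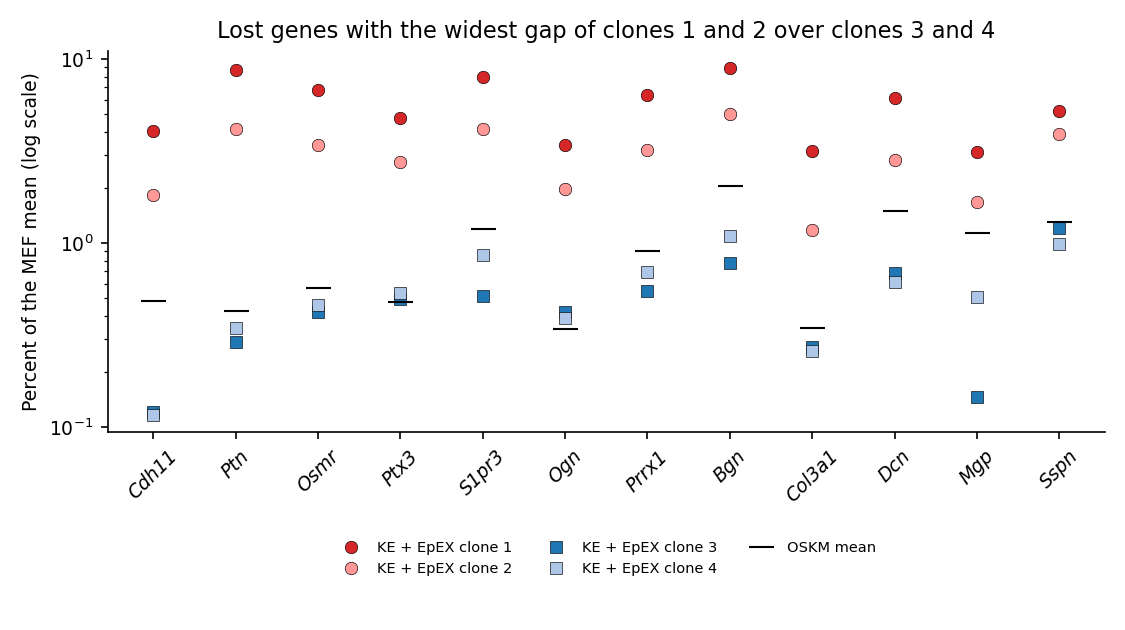
Level of the 12 lost genes with the widest gap between clones, as percent of the MEF mean (log axis), for KE + EpEX clones 1 to 4, with a dash at the OSKM mean. OE + EpEX clones are not drawn. Clones 1 and 2 hold between 1.17% and 8.92% of the mean of all 3 MEF samples (0.497% and 10.9% of samples 2 and 3), and clones 3 and 4 between 0.116% and 1.21%.

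Against mESCs, 7 of the 326 lost genes (2.15%) were counted, all higher in the KE + EpEX clones, against 3.45% of all probe sets counted in either direction and 1.74% counted as higher. Col6a3, a chain of type VI collagen, was 1.32 higher (SE 0.339, adjusted p = 0.0188), Serpinf1, a secreted serpin, 1.29 (SE 0.33, adjusted p = 0.0182) and Plxdc2, a membrane receptor, 1.25 (SE 0.373, adjusted p = 0.0405). Only 2 of the 7 calls held when each array was left out in turn, and 0 held without clones 1 and 2. Without those clones Col6a3 was 1.08 higher (adjusted p = 0.186), Serpinf1 0.765 (adjusted p = 0.215) and Plxdc2 0.459 (adjusted p = 0.402). Against OSKM and OE + EpEX clones 0 of the 326 were counted. The fit pooled the spread of all groups, MEFs included, and over the lost genes the SD of MEFs had a median of 1.15. A gene on which MEF samples split was thus less easily counted in any comparison. Lcn2 had an SE of 1.25 against mESCs, beside SDs of 0.106 in the clones and 0.042 in mESCs. These few calls therefore do not show that lost genes were at the level of the other groups.

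Markers of cell types had a symbol only where the authors had listed them at least 10-fold from the MEF mean. A marker without such a difference could not appear, so these counts describe the lists and do not test cell identity. Of 14 fibroblast markers 10 had a symbol and all 10 were lower in the clones, and of 9 pluripotency markers 8 had a symbol and all 8 were higher. Among markers of other cell types a symbol was known only for Pecam1, an endothelial adhesion protein that pluripotent cells also carry, which was higher. Markers of blood, muscle, neural cells and trophoblast had no symbol and were not analysed here. Of the 10 fibroblast markers, 6 (Col1a1, Col3a1, Dcn, Postn, Prrx1 and Pdgfrb) were among the 41 lost genes raised in clones 1 and 2 and 4 (Lum, Pdgfra, Twist1 and Twist2) were not. The part of feeder cells in the values of clones 1 and 2 was not tested. Gained genes followed the reverse order more weakly, as both clones 3 and 4 were above both clones 1 and 2 in 127 of 361 (35.2%) and below both in 59 (16.3%).

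Among probe sets without a symbol and outside the lists, 1447831_s_at was 6.99 above MEFs (SE 0.196, adjusted p = 5.67e-14), with clones between −0.02 and 0.57 and MEFs between −7.00 and −6.64. It was also 3.90 above mESCs. The probe set 1424542_at was 6.49 below MEFs (SE 0.809, adjusted p = 3.75e-06) and read 1.85, 0.24, −1.56 and 1.27 in the clones, so that clone 4 was not with clone 3 there.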

How the data were processed

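Total RNA of 18 samples, taken with Trizol per the labels, was labelled with biotin and hybridized to Affymetrix mouse expression arrays, 1 array per sample. The authors processed the arrays in GeneSpring GX and deposited log2 values, centred per probe set so that the median of all 18 arrays was 0 (largest departure 5.0e-07). MAS5 and RMA stand in the submitters' processing notes without a role or version, and the normalization between arrays is not given in the sources used here. The centring removes signal over background, so detection and dim probe sets are unknown, and the number of arrays limits the precision. 2 lists by the authors, of probe sets 10-fold or more from the MEF mean, also hold linear fold ratios, which are their own comparisons and were not used. Only their gene symbols were taken, for 904 probe sets with 1 symbol and 27 with several, and 17 listed probe sets had none.

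Control probe sets (64 of 45101) were left out. The log2 values were fitted with limma 3.58.1 in R 4.3.3 (lmFit and eBayes, 1 mean per group, all 18 arrays), with Benjamini-Hochberg adjustment per comparison. Calls needed an adjusted p under 0.05 and at least a 2-fold difference. The fit was tested on simulated data. P-values set each difference against a spread between samples that was pooled over all groups, although the groups differed in spread. They do not speak to variation between MEF cultures if the 3 MEF samples came from 1 primary culture. Other steps used Python 3.11.15, numpy 2.4.6, pandas 2.3.3 and matplotlib 3.10.9. Each gene was read by 1 probe set, IDs ending in digits and _at first, then _a_at, _s_at and _x_at, and within these the lowest number. Genes named are members of the gene lists with a symbol, the 10 with the widest difference each way, at most 2 probe sets without a symbol each way, and the 12 with the widest gap between clones 1 and 2 and clones 3 and 4, with the genes around a gap of 1 log2 unit. Members and lists were chosen with earlier results of these data known, and the cell division list was drawn from the symbols themselves. Promoters came from RefSeq (481 genes matched by symbol, 35 by synonym, 171 not matched). Alternatives were other thresholds, centring, quantile normalization, variance models, the methods' unpaired t-test, fits of fewer groups, a block for the replicate number, and arrays left out in turn. A few items of the gene lists are not reported here.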

Additional observations from a re-analysis of the deposited data

Results flagged for a closer look

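Several gained genes differed between KE + EpEX clones and mESCs by limma's test, so that their differences from MEFs were unequal in the 2 groups. Below mESCs were Pou5f1 (−5.75), Slc9b1 (−2.09), Zfp42 (−1.68), Aass (−1.56), Nr5a2 (−1.45) and Lin28a (−1.37). Above mESCs were Crxos1 (2.10), Stk31 (1.69), Cldn4 (1.59), Dppa3 (1.42), Rhox5 (1.22) and Aqp3 (1.18), and among the lost genes Col6a3 (1.32), Serpinf1 (1.29) and Plxdc2 (1.25). All are log2 differences, and the adjusted p-values stand with the genes in the report. The calls of Aqp3, Dppa3, Serpinf1 and Plxdc2 were lost when clone 1 or clone 2 was left out, and that of Col6a3 when clone 1 was.

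In 7 of the 113 named genes the highest or lowest clone lay further from the other 3 than Dixon's limit for 4 values allows, where chance at 1 in 20 gives 5.65. Clone 4 was apart at Sox2 (0.48), Crxos1 (−0.51), Cdh1 (−0.42) and Gldc (−1.12), clone 3 at Nanog (−0.15) and Sycp3 (1.31), and clone 1 at Aurkb (−0.33).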

How the results depend on the processing

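The count of probe sets that differed between KE + EpEX clones and MEFs (10696) ranged from 10376 to 11636 with each array left out, was 10957 without clones 1 and 2, and became 20116 with no fold threshold and 1916 after quantile normalization, which gives all arrays 1 spread. The count against mESCs (1552) ranged from 1227 to 1925 with each array left out and became 767 with the methods' t-test after Benjamini-Hochberg adjustment and 979 without clones 1 and 2. The count of 0 against OSKM became 831 after quantile normalization, 13 with only the compared groups in the fit and 0 to 114 with each array left out, 114 being without clone 3. The count of 0 against OE + EpEX became 0 to 11 with each array left out (11 when OE + EpEX clone 3 was out, and 1 when OE + EpEX clone 4 or KE + EpEX clone 1 was) and 25 with KE + EpEX clones 1 and 2 both out. The alternatives without clones 1 and 2, and the MEF-high probe sets outside the lists, were chosen after seeing the data. Same-numbered samples did not deviate together (correlations from −0.362 to 0.141), so numbers do not pair samples, and with a replicate block the counts were 10682 (MEFs), 1451 (mESCs), 0 (OSKM) and 0 (OE + EpEX).

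The median of the lost genes in clones 1 to 4 minus the MEF mean became −4.87, −5.35, −5.82 and −5.75 without MEF sample 1, was −3.79, −4.38, −4.81 and −4.68 without MEF sample 2 and −3.78, −4.38, −4.74 and −4.66 without MEF sample 3, and was −0.774, −1.38, −2.05 and −1.88 after quantile normalization. That of clone 1 minus the OSKM mean (0.613) became 1.11 after quantile normalization. Of 1048 recomputed KE + EpEX minus MEF differences of 113 named genes 0 changed sign, and quantile normalization moved 111 of the 113 genes by more than the spread between replicates.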
